A study of Quercus lobata with 12 samples.

Results

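The 200 genes whose leaf expression differed least between 12 valley oak (Quercus lobata) seedlings are described here. They were selected on their coefficient of variation (CV), the standard deviation of a gene over the 12 seedlings divided by its mean, from a table of RNA-seq read counts for 39373 genes. Counts were expressed as CPM, each count divided by the total of its column and multiplied by 1000000. The search was limited to genes with a mean of at least 20 CPM, and the 100 genes with the highest means were left out. This left 8447 candidate genes, of which the 200 with the smallest CV are called the steady genes below. Because the CV chose them, their small spread is a description and was not tested.

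Of the 12 seedlings, 6 were controls and 6 were treated with 5-Azacytidine, a cytosine analog that lowers DNA methylation. They came from 3 families, each grown from the acorns of 1 maternal tree and holding 2 control and 2 treated seedlings. The families are HV-11, LAY-15 and also YORK-09, written with points in the labels (HV.11), and according to the methods these families were picked for RNA work because their treated and control plants looked very different. Treatment began at 5 months of age, after all plants had been pruned, and lasted 27 days. Treated seedlings were sprayed with 50 µM 5-Azacytidine in the surfactant TWEEN 20 and controls with TWEEN 20 alone, so every seedling carried the surfactant. RNA was extracted from frozen leaf on days 16, 19 and 30 of October. Every family has seedlings from 2 extraction days, always a control together with a treated one, which gives 6 pairs that share a family and a day.

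Genes with steady expression are often those of tasks that every cell carries out, such as making and degrading proteins, splicing RNA and moving vesicles. They serve as internal references when the expression of other genes is measured, and a reference is useful only as far as its own level holds across the plants, conditions and RNA preparations compared. A relative measure such as CPM adds a complication, since a gene whose transcript number per cell is constant takes a smaller share of the reads wherever a few abundant transcripts take a larger one. The identifiers in the table carry no gene names, and 0 matched RefSeq's genes of the species, so neither the functions of the steady genes nor leaf marker genes could be looked up. At most a few genes are therefore given, by identifier. Gene lengths are likewise not paired with the identifiers, so CPM is compared between seedlings and not between genes.

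Column totals ran from 9926728 to 11570198 counts. In whole leaf tissue, fewer cells of a type and less RNA per cell cannot be told apart. The counts of any 2 seedlings differed by more than sampling noise, with a chi-square per degree of freedom of at least 26.4 over 66 pairs. Normalization factors of the trimmed mean of M-values (TMM), which set the bulk of genes level between libraries, ran from 0.879 in LAY-15-34 to 1.18 in YORK-09-08. The control LAY-15-30 and the treated LAY-15-34, extracted on day 19, stood apart from the other libraries in their low values. They held the lowest value for 21.3% and 20.0% of the candidate genes, more than any other seedling. The list, the edgeR counts, the family order, the shares of variation and, except for LAY-15 itself, the steadiness in seedlings not used to choose are also given without them. The treated YORK-09-08 held the highest value for 21.8% of the candidate genes, more than any other seedling. Without it only the list and the edgeR counts are given.

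The CV of the steady genes ran from 6.68% to 13.2%, with a median of 11.8%. Over all candidate genes the median was 32.6% and the highest CV 343%. The highest of the 12 values of a steady gene was 1.24 to 1.73 times the lowest, with a median of 1.47, and for 128 of the 200 genes this ratio was under 1.5. Among all candidates the median ratio was 2.99, over those with no value of 0. No steady gene had fewer than 164 counts in any seedling, whereas 71 candidate genes had a 0 in at least 1 seedling. Only 27 steady genes had a CV under 10%.

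The limit of the list falls in a dense part of the distribution. The last gene inside it had a CV of 13.159% and a range of 26.7 to 41.3 CPM, and the first gene outside had a CV of 13.170% and a range of 24.5 to 37.3 CPM. Genes on either side of the limit thus differed in CV by far less than the steady genes did among themselves.

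**Figure D1:**
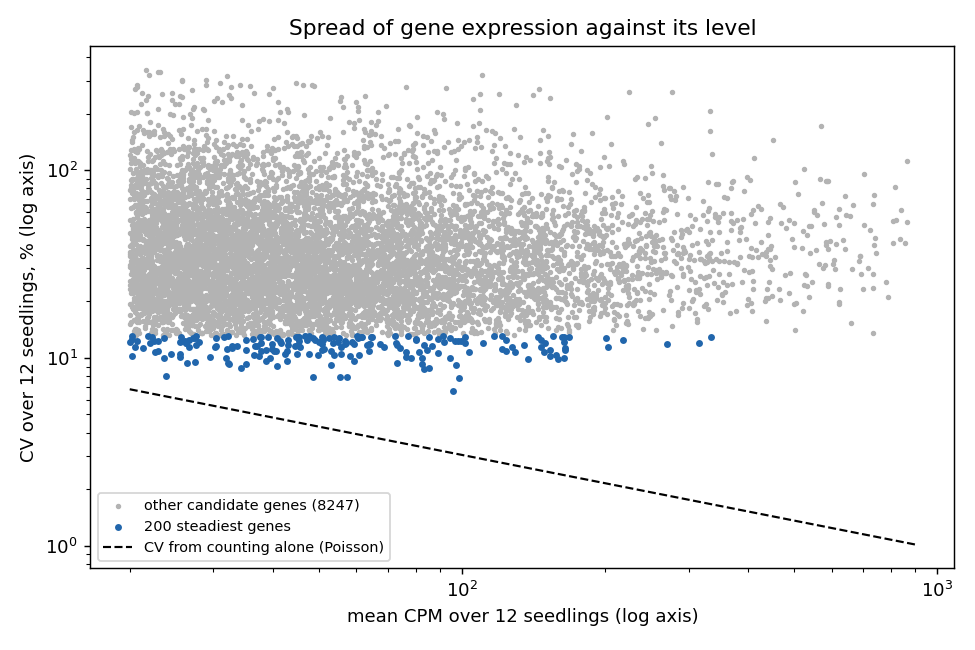
CV over the 12 seedlings (y axis, percent, log scale) against mean CPM (x axis, log scale) for the 200 steady genes (blue) and the other 8247 candidate genes (grey), with the CV that counting alone would give (dashed line). The steady genes lie between 6.68% and 13.2%, above the line, which falls as the level rises.

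Steady genes were found in every class of level compared. Their means ran from 20.0 to 335 CPM with a median of 52.0 CPM, close to the 47.2 CPM of all candidates. Of the 4475 candidates between 20 and 50 CPM, 94 (2.10%) were steady genes, as were 70 of 2294 (3.05%) between 50 and 100 CPM, 30 of 1138 (2.64%) between 100 and 200 CPM and 6 of 540 (1.11%) above 200 CPM. The median CV of the steady genes in these 4 classes lay between 11.6% and 12.2%.

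Counting alone gives a Poisson CV that falls from 5.23% in the median steady gene of the lowest class to 1.96% in that of the highest. The CV of a steady gene was 1.28 to 7.74 times its counting CV, with a median of 2.71, while the median candidate gene reached 7.96 times. In the median steady gene, counting accounted for 13.7% of the variance between seedlings, and for 60.7% in the gene with the largest share. No test against counting was made for single genes.

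The steadiest gene, QL10p022943, had a mean of 96.0 ± 6.41 CPM (SD, n = 12) and a CV of 6.68%, with a counting CV of 3.11%. In HV-11 its level was 105 CPM in the control HV-11-05, 84.5 CPM in the treated HV-11-33, 104 CPM in the control HV-11-34 and 101 CPM in the treated HV-11-40. In LAY-15 it was 92.3 CPM in the control LAY-15-03, 86.9 CPM in the treated LAY-15-09, 101 CPM in the control LAY-15-30 and 97.3 CPM in the treated LAY-15-34. In YORK-09 it was 94.6 CPM in the control YORK-09-03, 99.1 CPM in the treated YORK-09-08, 96.8 CPM in the control YORK-09-10 and 90.7 CPM in the treated YORK-09-37. The lowest and the highest seedling of this gene thus belonged to the same family and the same extraction day, and the 2 seedlings that stood apart, LAY-15-30 and LAY-15-34, were not among its extremes. These extremes hold for column totals only. After TMM its highest level was 111 CPM in LAY-15-34 and its lowest 83.8 CPM in YORK-09-08, its CV was 8.03% and its rank fell from 1 to 25.

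The steady gene with the highest mean, QL06p021218, had 335 ± 43.2 CPM (SD, n = 12) and a CV of 12.9%, 7.74 times the 1.67% that counting gives. Its lowest level was 281 CPM in LAY-15-34 and its highest 414 CPM in HV-11-05. Family means were 374 ± 33.8 CPM for HV-11, 331 ± 40.5 CPM for LAY-15 and 300 ± 17.8 CPM for YORK-09 (SD, n = 4 each), and those of the treatments were 340 ± 45.02 CPM in controls and 329 ± 44.8 CPM in treated seedlings (SD, n = 6 each). The seedlings of HV-11 lay between 332 and 414 CPM and those of YORK-09 between 286 and 325 CPM, but after TMM the 2 families overlapped, with HV-11-34 at 307 CPM and YORK-09-37 at 319 CPM. The lowest seedling after TMM was YORK-09-08, at 244 CPM. Without the day 19 seedlings of LAY-15 the CV was 12.7%. The steady gene with the lowest mean, 20.0 ± 2.43 CPM (SD, n = 12), had a CV of 12.1% against a counting CV of 6.81%, and its 170 to 270 counts per seedling corresponded to 15.2 to 23.3 CPM.

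**Figure D2:**
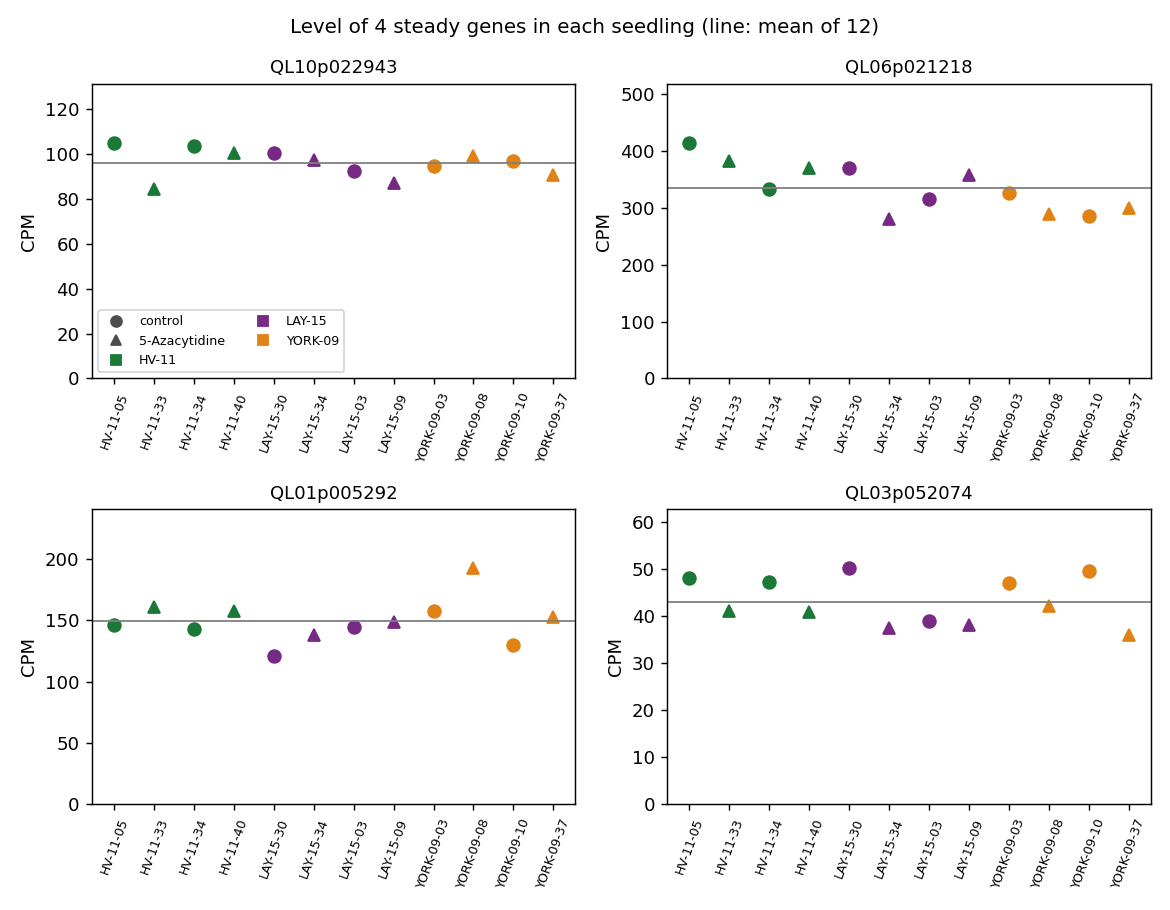
Level in CPM (y axis, from 0) of 4 steady genes in each of the 12 seedlings (x axis), with controls as circles, treated seedlings as triangles, families by colour and the mean of 12 as a line. QL10p022943 stays between 84.5 and 105 CPM, QL06p021218 spans 281 to 414 CPM, and treated seedlings lie above the control of their pair for QL01p005292 and below it for QL03p052074 in 6 of 6 pairs, 2 genes chosen for their treatment p. Values are scaled by column totals, and after TMM QL03p052074 is lower in 5 of 6 pairs.

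The spread that remained among the steady genes was not divided evenly over the seedlings. In CPM, the highest of the 12 values lay in HV-11-05 for 49 of the 200 genes and in YORK-09-08 for another 49, and in HV-11-33 for 1. The lowest value lay in LAY-15-34 for 60 genes and in HV-11-34 for 2. Among all candidate genes, YORK-09-08 was also the most frequent highest seedling (21.8%), followed by LAY-15-30 (19.4%). The median steady gene lay 0.13 above its own mean on the log2 scale in HV-11-05, 0.14 above it in YORK-09-08 and at -0.16 in LAY-15-34, so that many steady genes were high, or low, in the same seedlings.

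The steady genes summed to 1.26% to 1.51% of the counts of a seedling, which is the same pattern in a single value. The share was 1.51% in HV-11-05, 1.37% in HV-11-33, 1.46% in HV-11-34 and 1.47% in HV-11-40. It was 1.38% in LAY-15-03, 1.33% in LAY-15-09, 1.37% in LAY-15-30 and 1.26% in LAY-15-34. In YORK-09 it was 1.34% in YORK-09-03, 1.49% in YORK-09-08, 1.35% in YORK-09-10 and 1.32% in YORK-09-37. By family the mean was 1.45% ± 0.0611 for HV-11, 1.33% ± 0.0538 for LAY-15 and 1.38% ± 0.0795 for YORK-09 (SD, n = 4 each, with 1.35% for LAY-15 over its day 30 seedlings), and by treatment 1.40% ± 0.0693 in control and 1.37% ± 0.0909 in treated seedlings (SD, n = 6 each). The 2 treatments overlapped over most of their range, and the families overlapped too.

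The share taken by abundant transcripts also differed between these seedlings. The 100 most abundant genes held 16.3% of the counts in YORK-09-08 and 21.9% in HV-11-05, where the steady genes had their largest shares, and 29.9% in LAY-15-34, where they had the smallest. Both shares are given for the other seedlings, which kept no single order. The abundant genes held 19.7% in HV-11-40, where the steady genes summed to 1.47%. They held 34.4% in LAY-15-09, 31.0% in YORK-09-10 and 31.1% in YORK-09-37, with sums of 1.33%, 1.35% and 1.32%. HV-11-33 had 30.6% with a sum of 1.37%, and LAY-15-03 had 27.1% with 1.38%. The abundant genes held 20.6% in LAY-15-30 and 23.0% in YORK-09-03, whose steady genes summed to 1.37% and 1.34%. They held 25.3% in HV-11-34, whose steady genes summed to 1.46%. The part of these transcripts in the shared pattern of the steady genes was not tested. With counts scaled by TMM, the median deviation of the steady genes changed sign in YORK-09-08, to -0.10, and in LAY-15-34, to 0.024. In HV-11-05 it was 0.12, with 154 of the 200 genes above their own mean under either scaling. The CV of the summed steady genes was 5.65% as a share of the column total and 5.30% after TMM.

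**Figure D3:**
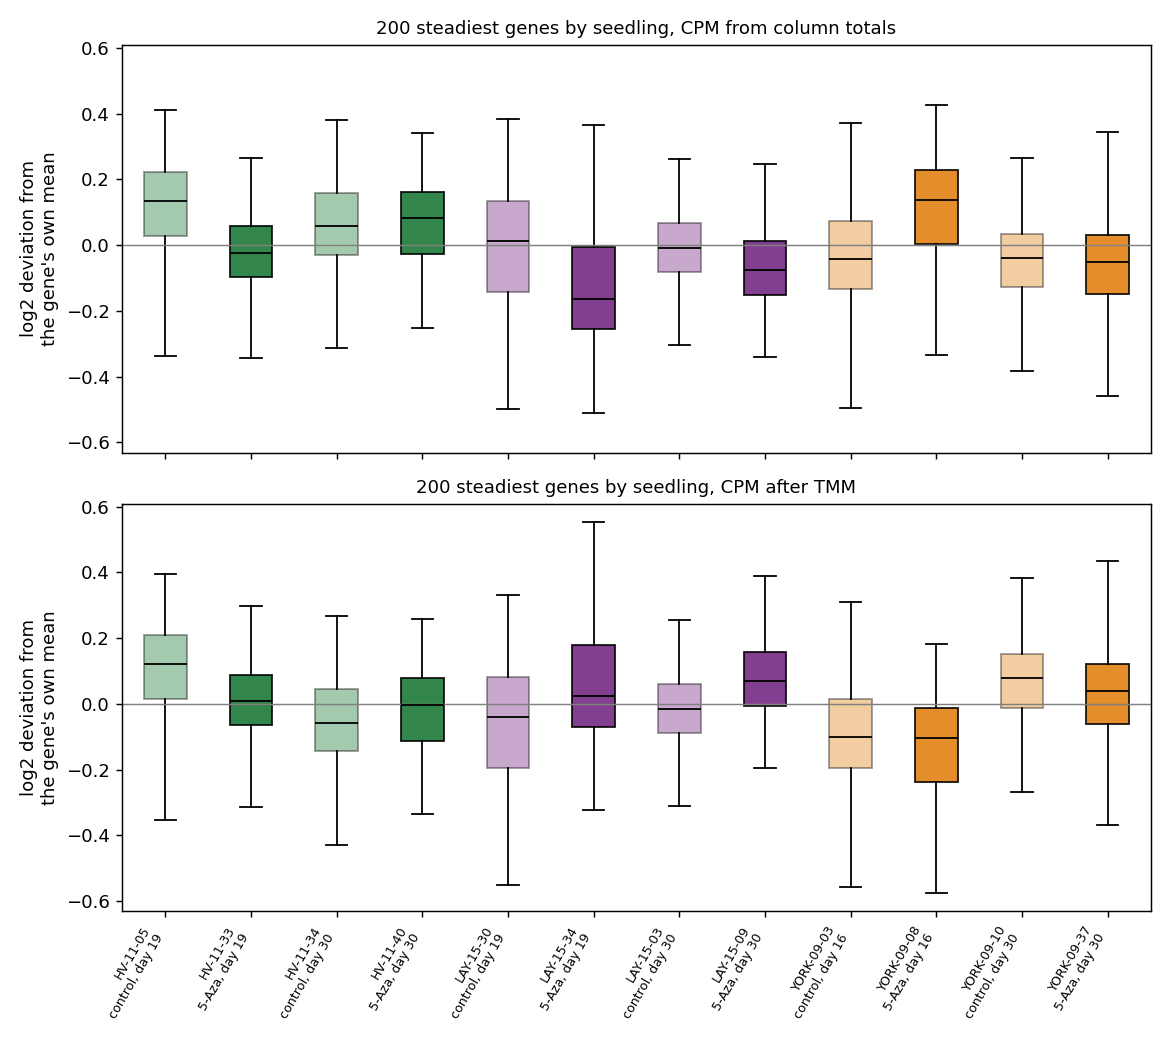
Log2 deviation of the 200 steady genes from each gene's own mean (y axis) in every seedling (x axis), in CPM from column totals (upper panel) and after TMM (lower panel). Boxes span the quartiles with the median, whiskers span all 200 genes, colours mark families and pale boxes are controls; YORK-09-08 is at 0.14 in the upper and -0.10 in the lower panel, and HV-11-05 is high in both.

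The scaling also decided which genes were steady. The same rule applied after TMM shared 104 of its 200 genes with the list, and 109 with median-ratio size factors. The steady genes had a median CV of 10.99% after TMM, with the highest at 17.9%, and their median rank among the 8431 candidates was then 188. Of the 200, 148 were among the first 400 genes, and the lowest placed held rank 1487. Most steady genes thus ranked near the steady end of the candidates under TMM too, while about as many of the steadiest places were taken by others. The same counts chose the steady genes, so these ranks are a description and no separate support for the list.

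Single seedlings also counted. Leaving out 1 seedling at a time, the rule shared 114 to 182 genes with the list. It shared the fewest without YORK-09-08 (114) and without LAY-15-30 (125), and 103 without both day 19 seedlings of LAY-15. A robust measure, the scaled median absolute deviation over the median, which gives no weight to the most extreme seedlings, shared 56 genes.

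Whether steadiness holds in seedlings that had no part in the choice was measured across the 2 treatments. The rule applied to the 6 controls alone gave 200 genes with a median CV of 8.06% in those controls. In the 6 treated seedlings the same genes had a median CV of 20.2%, against 31.3% for all 8525 candidates of that choice. Of these genes, 55.5% fell among the steadiest 25% of candidates in treated seedlings, and 20 of 200 fell above the median CV.

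In the opposite direction the values were similar. The 200 genes chosen in the treated seedlings had a median CV of 8.78% there and of 19.1% in the controls, where the median candidate had 31.4%. Of these, 53.5% were among the steadiest 25% in the controls. The median CV of the chosen genes was thus more than 2 times as large in plants that had no part in the choice, yet stayed below that of all candidates. After TMM 69.0% of genes were among the steadiest 25% in each direction. Without the day 19 seedlings of LAY-15, which leaves 5 seedlings to a treatment, the shares were 50.0% in treated seedlings and 50.5% in controls. Control and treated seedlings share families and extraction days, so the 2 groups are not independent draws.

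The lists made from the 6 controls and from the 6 treated seedlings had 9 genes in common, 4.50% of each, where a list is 2.35% of the candidates in controls and 2.40% of those in treated seedlings. All 9 were among the steady genes, QL10p022943 being one of them. The same seedlings chose the steady genes, so this is no separate support for the list. Over all candidates, the CV in controls and the CV in treated seedlings had a Spearman correlation of 0.656, a description across genes, which are not independent replicates.

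Across families, genes were chosen in the 8 seedlings of 2 families and measured in the 4 of the other. In HV-11, 60.5% of the 200 genes were among the steadiest 25% of candidates, with a median CV of 13.2% against 23.3% for all candidates. In LAY-15 the share was 55.5%, with 17.0% against 29.9%. In YORK-09 it was 51.5%, with 18.0% against 28.3%. The seedlings of a family are its replicates, so no order of the families is drawn from these shares. Without the day 19 seedlings of LAY-15 among those that chose, 111 of the 200 genes in HV-11 and 90 in YORK-09 were among the steadiest 25%.

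**Figure D4:**
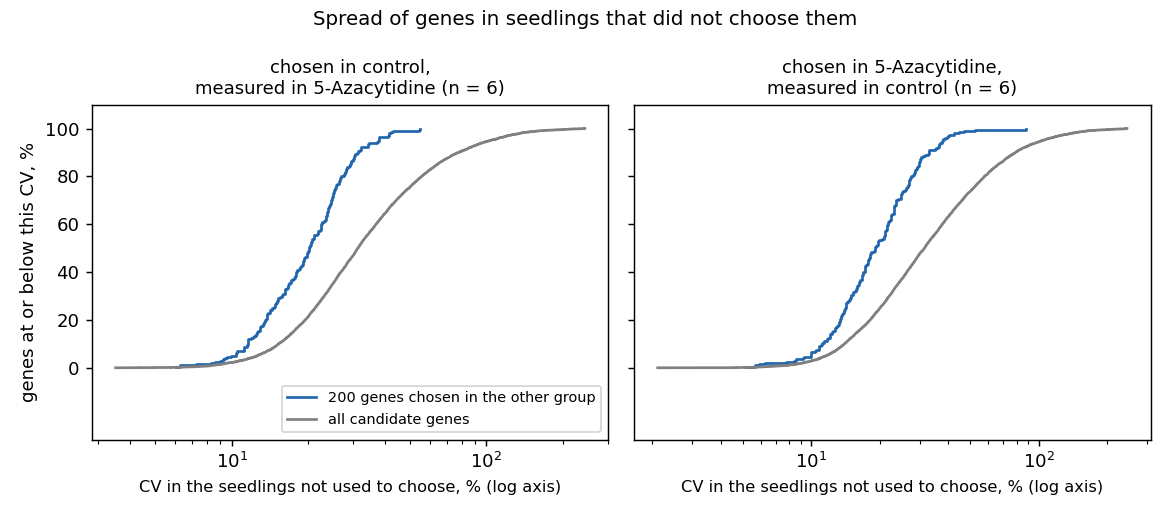
Cumulative share of genes (y axis, percent) at or below a given CV (x axis, percent, log scale) in the 6 treated seedlings for 200 genes chosen in the controls (left) and in the 6 controls for 200 genes chosen in the treated seedlings (right), with all candidates in grey. The chosen genes lie to the left of all candidates, with medians of 20.2% and 19.1% against 31.3% and 31.4%.

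Treatment was compared within the steady genes with edgeR's quasi-likelihood test over all 23791 genes that passed a filter on low counts, with RNA extraction day as a covariate. Since a small CV over the same 12 seedlings bounds any difference between them, the counts that follow are a description and nothing is read from their size. All 200 steady genes passed the filter. At an unadjusted p under 0.05, edgeR gave 0 of the 200, against 392 genes higher (1.65%) and 274 lower (1.15%) in treated seedlings over all genes tested, and 2.14% of the candidates in either direction. The smallest unadjusted p of a steady gene was 0.0929, and with Benjamini-Hochberg adjustment edgeR called 0 steady genes, as it did over all genes (0%). DESeq2 gave 6 steady genes an unadjusted p under 0.05, 5 higher and 1 lower, against 5.09% of all genes tested (2.82% higher and 2.27% lower), and called 0 of them after adjustment (0.0967% of all genes). Fitted log2 fold changes of the steady genes ran from -0.21 to 0.22, with a median standard error of 0.13.

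The direction of the treatment difference depended on the scaling. In CPM from column totals, 71 steady genes had a higher and 129 a lower mean in treated seedlings, with a median log2 ratio of -0.033 against -0.050 over all candidates. In the edgeR fit with TMM, 109 were higher and 91 lower, with a median of 0.0087 against -0.021 over all genes tested. With library totals in place of TMM, the fit had 73 higher and 127 lower. For none of the 200 genes did the treated seedlings all lie above or all below the controls, and among the candidates this held for 0 (0%) and 3 (0.0355%).

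Within pairs, 1 steady gene was higher in the treated seedling in 6 of 6 pairs and 5 were lower in 6 of 6 in column totals. Among the candidates the shares were 0.758% and 1.27%. After TMM more steady genes were higher than lower in 6 of 6 pairs, with very few in either direction. The candidates were not counted after TMM, so nothing is read from this difference. The pairs did not move alike. In the pair of day 16, from YORK-09, 142 of the 200 genes were higher in the treated seedling, and the median log2 ratio was 0.14. In the day 19 pairs of HV-11 and LAY-15, 156 and 137 genes were lower, with medians of -0.15 in each. On day 30 the median was 0.0093 for the HV-11 pair, -0.066 for the LAY-15 pair and 0.00068 for the YORK-09 pair. These ratios are in CPM from column totals and share the scaling described above. The ratios of the candidates were not computed by pair, so a shift of a whole library cannot be told apart from one of the steady genes.

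The smallest treatment p-values of the steady genes belonged to QL01p005292 among those higher and to QL03p052074 among those lower in treated seedlings. QL01p005292 had 140 ± 13.03 CPM in control and 158 ± 18.4 CPM in treated seedlings (SD, n = 6 each). Its controls were at 146 CPM in HV-11-05, 143 CPM in HV-11-34, 144 CPM in LAY-15-03, 121 CPM in LAY-15-30, 158 CPM in YORK-09-03 and 130 CPM in YORK-09-10. Its treated seedlings were at 161 CPM in HV-11-33, 157 CPM in HV-11-40, 149 CPM in LAY-15-09, 138 CPM in LAY-15-34, 192 CPM in YORK-09-08 and 153 CPM in YORK-09-37. The treated seedling was the higher in 6 of 6 pairs, also after TMM, although in column totals the groups overlapped between 138 and 158 CPM. edgeR fitted a log2 fold change of 0.21 with a standard error of 0.12 (unadjusted p = 0.0929, adjusted p = 1), and DESeq2 gave an adjusted p of 0.58.

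QL03p052074 had 46.9 ± 4.03 CPM in control and 39.3 ± 2.46 CPM in treated seedlings (SD, n = 6 each). Its controls were at 48.2 CPM in HV-11-05, 47.4 CPM in HV-11-34, 39.1 CPM in LAY-15-03, 50.2 CPM in LAY-15-30, 47.0 CPM in YORK-09-03 and 49.6 CPM in YORK-09-10. Its treated seedlings were at 41.1 CPM in HV-11-33, 41.0 CPM in HV-11-40, 38.2 CPM in LAY-15-09, 37.5 CPM in LAY-15-34, 42.3 CPM in YORK-09-08 and 36.0 CPM in YORK-09-37. A single control, LAY-15-03, lay within the range of the treated seedlings, and the treated seedling was the lower in 6 of 6 pairs. After TMM it was the lower in 5 of 6, since the day 30 pair of LAY-15 turned, with 38.9 CPM in the control LAY-15-03 and 42.3 CPM in the treated LAY-15-09. edgeR fitted a log2 fold change of -0.21 with a standard error of 0.12 (unadjusted p = 0.101, adjusted p = 1), with an adjusted p of 0.932 from DESeq2. Both genes were picked for these differences among the 200, so their agreement over pairs is no independent evidence.

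edgeR's gene-wise biological CV, an estimate drawn toward the trend of all genes at the same level, had a median of 23.4% for the steady genes, 34.1% for the candidates and 52.0% for all genes tested. The steady genes were therefore less variable than the typical gene in this estimate too, which rests on the same seedlings and is a description. The quasi-likelihood test does not use this gene-wise value.

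Families were compared in the same way, with treatment and extraction day as covariates. In CPM, the family mean was highest in HV-11 for 127 steady genes, in YORK-09 for 50 and in LAY-15 for 23, and lowest in LAY-15 for 125. Among the candidates, HV-11 was highest for 37.9% and LAY-15 lowest for 49.0%. After TMM the families were closer, with HV-11 highest for 79, LAY-15 for 77 and YORK-09 for 44 genes, and YORK-09 lowest for 93. The candidates were not counted after TMM over all 12 seedlings. Without the day 19 seedlings of LAY-15, HV-11 was highest for 126 and LAY-15 lowest for 119 steady genes in column totals, and LAY-15 highest for 93 and YORK-09 lowest for 101 after TMM. Over the other 8247 candidates these counts were 3585 and 4232 in column totals, and 2417 and 2506 after TMM. edgeR called 0 of the 200 steady genes between families (1 gene, a candidate, which is 0.0042% of all genes tested and 0.0118% of candidates). At an unadjusted p under 0.05 it gave 0 steady genes (7.76% of all genes and 6.48% of candidates). DESeq2's likelihood ratio test called 0 (2.25% over all genes), with 1 at an unadjusted p under 0.05 (12% over all genes).

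Within a family, the median CV over its 4 seedlings for HV-11 was 9.09%, for LAY-15 10.9% and for YORK-09 11.3% in the steady genes, and 23.2%, 30.2% and 28.6% in the candidates. The steady genes had a median CV of 10.985% in controls and 11.6% in treated seedlings, and 110 of the 200 had the lower CV in controls.

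Extraction day, with treatment and family as covariates, gave 0 steady genes past an adjusted p of 0.05 with edgeR (0% over all genes tested), 1 at an unadjusted p under 0.05 (8.21% over all genes and 9.51% of candidates). DESeq2 called 1 (2.35% over all genes), with 6 at an unadjusted p under 0.05 (13.3% over all genes). Both tools pointed to QL05p063822, which is named because it was the only one called, after its values were seen. Its mean was 54.3 ± 5.68 CPM on day 16 (SD, n = 2), 57.1 ± 7.24 CPM on day 19 (n = 4) and 65.0 ± 6.68 CPM on day 30 (n = 6), with adjusted p-values of 0.6 from edgeR and 0.0462 from DESeq2. The 2 seedlings of day 16, at 50.3 and 58.3 CPM, are both from YORK-09. The day 30 seedlings ran from 54.8 CPM in LAY-15-09 to 74.7 CPM in YORK-09-37, and those of day 19 from 50.7 CPM in LAY-15-34 to 67.4 CPM in HV-11-33, so the days overlapped.

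Taking the factors singly, the share of a gene's variation (log2 of CPM + 1) that lay between families had a median of 20.7% for the steady genes and 23.2% for the other candidates. Between extraction days it was 14.1% and 24.1%, and between treatments 4.09% and 2.49%. Such a share is positive even with no effect, and larger for family and day, with 3 levels each, than for treatment, with 2. The share expected with no effect was not computed, so no effect of a factor is read from these values. After TMM the medians of the steady genes were 13.4% for family, 22.1% for day and 3.62% for treatment. The order of family and day among the steady genes thus turned with the scaling, whereas for the other candidates both stayed between 22.8% and 24.9%. Without the day 19 seedlings of LAY-15 the medians of the steady genes were 20.8% for family and 18.4% for day in column totals, and 14.4% and 27.4% after TMM. Families and days overlap in this design, since no family has seedlings from all 3 days.

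**Figure D5:**
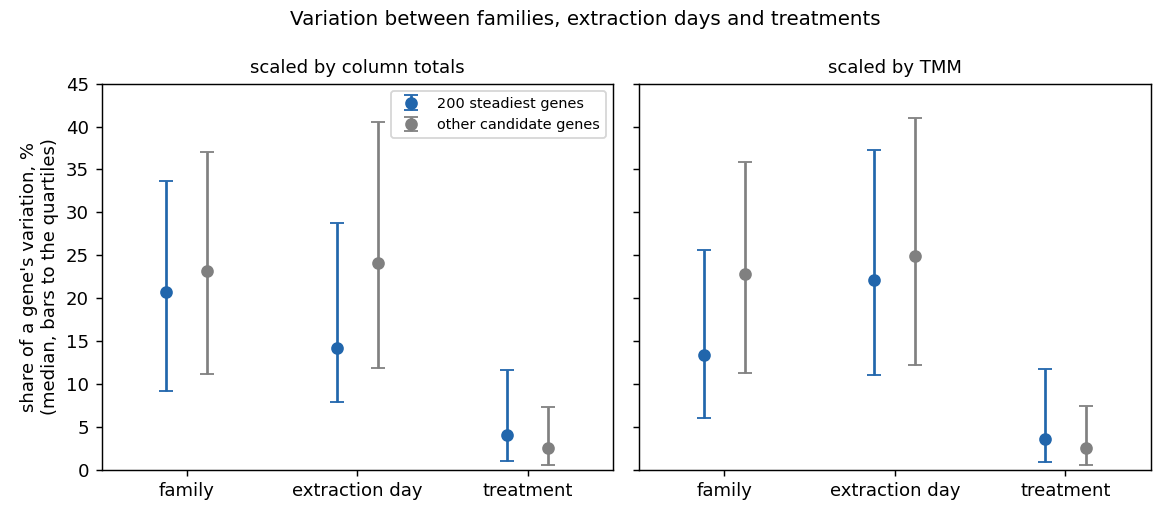
Share of a gene's variation in log2(CPM + 1) that lay between families, extraction days and treatments (y axis, percent), as the median with bars to the quartiles over the 200 steady genes (blue) and the other 8247 candidates (grey), scaled by column totals (left) and by TMM (right). The family share of the steady genes is 20.7% on the left and 13.4% on the right, and the share between extraction days is 14.1% and 22.1%. Shares are positive even with no effect, and more so for a factor with more levels.

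The position of the seedlings relative to each other was compared over all steady genes. In their scaled values, the first principal component held 29.6% of the variance, and 28.6% over all candidates. A seedling's nearest neighbour was of its own family in 4 of 12 cases, of its own extraction day in 4 and of its own treatment in 3. Over all candidates these counts were 3, 5 and 7. After TMM the first component of the steady genes held 23.5%, and the nearest seedling shared the family for 2, the day for 6 and the treatment for 5 of 12, against 4, 5 and 6 over all candidates. Random neighbours would share a treatment, with 6 seedlings each, more often than a family, with 4 each. That expectation was not computed, so no order of the factors is read from these counts.

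As a reference, the geometric mean of the steady genes gave size factors between 0.916 and 1.16 around a mean of 1, against 0.920 to 1.07 for column totals and 0.866 to 1.13 for TMM. The largest disagreement with TMM was in YORK-09-08, at 1.03 from the steady genes and 1.13 from TMM. Since the genes were chosen for following the column totals, this scale is not independent of them. With this scale in edgeR, 0 genes passed an adjusted p of 0.05 between treatments, and 672 (2.82% of genes tested) had an unadjusted p under 0.05, against 666 (2.80%) with TMM. DESeq2 called 23 genes with its own size factors.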

How the data were processed

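Leaf RNA of 12 seedlings was sequenced as polyA libraries. Following the methods and the labels, the authors trimmed reads with Cutadapt 2.3, mapped them with STAR 2.7.1 to the genome of the species, kept uniquely placed reads (SAMtools 1.9), dropped artifact duplicates marked by Picard 2.20.3, and deposited whole-number counts per gene from HTSeq 0.11.1, without normalization. The strand option is not given in the sources used here, so overlapping and antisense genes are uncertain, as are genes with near-identical copies. The steady genes and all tests were chosen with earlier results of these data known.

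Genes were ranked by CV of CPM. Tests used R 4.3.3 with edgeR 4.0.16 (TMM, filterByExpr with minimum count 10 and minimum total count 15, glmQLFTest) and DESeq2 1.42.0, with Benjamini-Hochberg adjustment over all genes tested. The standard error is the log2 fold change over the root of the F statistic. Shares of variation used a pseudocount of 1. TMM factors came from all 12 seedlings, also where genes were chosen in some. Seedlings were paired by the family and extraction day in the labels; deviations from the treatment means had correlations of 0.0673 to 0.489 within the 6 pairs. Depth, 9926728 to 11570198 counts, gives a counting CV of 6.81% at 20.0 CPM, which covers counting error only. Identifiers named are the steady genes with the smallest CV, the highest mean, and the smallest treatment p in each direction, by a rule, plus 1 named after its values were seen. P-values take single seedlings as replicates and rest on a spread drawn in part from other genes. Scripts were tested on simulated data. Alternatives were other scalings, filters, covariates, measures of spread, pairs as a block and seedlings left out. Gene lists by function and cell type markers were not used, since no identifier matched a name. Figures used matplotlib 3.10.9.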

Additional observations from a re-analysis of the deposited data

Results flagged for a closer look

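Over the summed share of the steady genes and the 4 genes named by rule, 25 groups of 4 or 6 seedlings were screened for a single seedling far from the rest of its group. This screen picks about 1 group in 20 by chance, and it picked 3. The summed share was 1.494% in YORK-09-08, the highest of its family, with the next seedling of YORK-09 at 1.351%. QL03p052074 was at 39.09 CPM in LAY-15-03, the lowest control, with the next control at 47.02 CPM. The same gene was at 50.21 CPM in LAY-15-30, the highest of its family, with the next LAY-15 seedling at 39.09 CPM. LAY-15-30 is one of the 2 libraries that most often held the lowest value over the candidates. It also held the highest value for 19.4% of them. YORK-09-08 most often held the highest and has the largest TMM factor, 1.18. The part of these libraries in these values was not tested.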

How the results depend on the processing

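The choice of steady genes depended on the processing. Of the 200 genes, the rule shared 104 with TMM, 109 with median-ratio factors, 106 with a minimum mean of 50 CPM, 56 with the scaled median absolute deviation, 103 without the day 19 seedlings of LAY-15, and 114 to 182 when 1 seedling was left out. It shared 168 with a minimum of 10 CPM, 185 with the SD of log2 values, 181 with counting variance subtracted and 200 with no abundant genes left out. With TMM, the share of genes among the steadiest 25% in seedlings not used to choose them was 69.0% for either treatment, 62.5% in LAY-15 and 64.5% in YORK-09, against 55.5%, 53.5%, 55.5% and 51.5%; in HV-11 it was 60.5% with both. The median share of variation between families fell from 20.7% to 13.4% with TMM, an alternative chosen after seeing the data, as was leaving the day 19 seedlings of LAY-15 out of the shares and of the tests. The causes were not tested.

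Of the 200 steady genes, DESeq2 gave 6 an unadjusted p under 0.05 for treatment and called 1 for extraction day, where edgeR gave 0 and 0. Under every other alternative fit, those without 1 seedling (0 to 0) and the seedlings of day 19 or day 30 alone included, edgeR gave 0 steady genes for treatment, and 0 calls for family and for extraction day. For genes chosen by a small CV, counts near 0 say nothing of how stable the tests are. Their cause was not tested. With the 6 pairs of family and extraction day as a replicate block, the count for treatment was 0, and the block changed no call. The number of steady genes higher or lower in treated seedlings turned between scalings, as given above, and 93 to 130 were higher in the TMM fit when 1 seedling was left out. Depth sets a floor for the CV, since counting alone gives 6.81% at 20.0 CPM, which is below the 13.2% where the list ends.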
